A study of Rattus norvegicus with 12 samples.

Results

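The repair course of rat kidneys given placebo was followed from day 2 to day 7 after ischemia-reperfusion injury, which means that blood flow to the kidney was stopped for a time and then let in again. The comparison takes the 3 arrays whose sample titles give placebo and day 7 against the 3 whose titles give placebo and day 2, which are 6 of the 12 arrays of the series. It covers the 18166 genes that had a row with a single annotated symbol and values on all arrays. The other 6 arrays came from injured kidneys of rats given anti-miR-182, an inhibitor of the microRNA miR-182, 3 at day 2 and 3 at day 7. The titles give each array an animal number of its own, all 4 groups had been injured, and the sources used here do not give strain, age, length of ischemia or inhibitor dose. A sample description speaks of a biopsy at hour zero, while the titles give the days, and groups were taken from the titles. Kidneys without injury were not analysed here, so each value compares a later with an earlier injured kidney.

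After ischemia the epithelium of the proximal tubule, which reabsorbs most of the filtered sodium, glucose, amino acids and phosphate and runs mainly on fatty acid oxidation, is the segment that loses most cells. Surviving tubule cells flatten, re-enter the cell cycle and replace the lost cells, while monocytes and lymphocytes enter the tissue and fibroblasts lay down matrix. Some tubules then regain their transport and metabolic genes, and others stay in an injured state beside persisting inflammation and fibrosis.

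Values are log2 signals after quantile normalization of the 12 arrays together, which puts all arrays on 1 distribution, and a difference is day 7 minus day 2 on that log2 scale, with the SE of the limma fit and n = 3 animals per group. The threshold for a gene to pass was an adjusted p under 0.05 in limma (Benjamini-Hochberg, over all genes), and "rose" and "fell" are used of such genes only. The deposited values of the 18166 genes had medians of 6.48 to 6.54 on the placebo day 2 arrays and 6.32 to 6.37 on the placebo day 7 arrays, and 190 control rows held no values on the day 2 arrays. Day and any difference in how the arrays of each day were run or normalized cannot be told apart. Kidney markers were present on every placebo array: the thick limb protein uromodulin, Umod, read 11.34, 11.15 and 11.18 at day 2 and 11.84, 11.29 and 11.45 at day 7, and the proximal phosphate transporter Slc34a1 read 10.33, 10.12 and 10.04 and 9.87, 9.82 and 9.55. The first principal component of the 6 placebo arrays held 56.4% of the variance and set the days apart, with day 2 between -24.4 and -23.5 and day 7 between 21.3 and 25.3. Correlations between arrays were 0.992 to 0.994 within day 2, 0.984 to 0.985 within day 7 and 0.971 to 0.976 between the days.

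Between day 2 and day 7 the largest falls included genes of cell division and of proximal tubule metabolism, and the largest rises included genes of matrix, antigen presentation, macrophages and T cells. Of the 18166 genes 2890 passed (15.9%), 1419 higher (7.81%) and 1471 lower (8.1%) at day 7. The counts of list members given below stand beside these shares. A difference of at least 1, which is a 2-fold change, was reached by 290 genes that passed (1.6%), 117 higher (0.644%) and 173 lower (0.952%). The groups of arrays did not overlap in 7182 genes (39.5%). The median difference of all genes was -0.00957, with quartiles of -0.20 and 0.18. Without further normalization it was -0.179 and 5080 genes passed, 766 of them higher (15.1% of the calls, against 49.1%), so that all differences are given relative to the common distribution. Without replicate 1, 2 or 3 of day 2 there were 1635, 1563 and 1524 calls. In bulk tissue fewer cells of a type and less RNA per cell cannot be told apart, and this holds for every gene group described here.

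**Figure D1:**
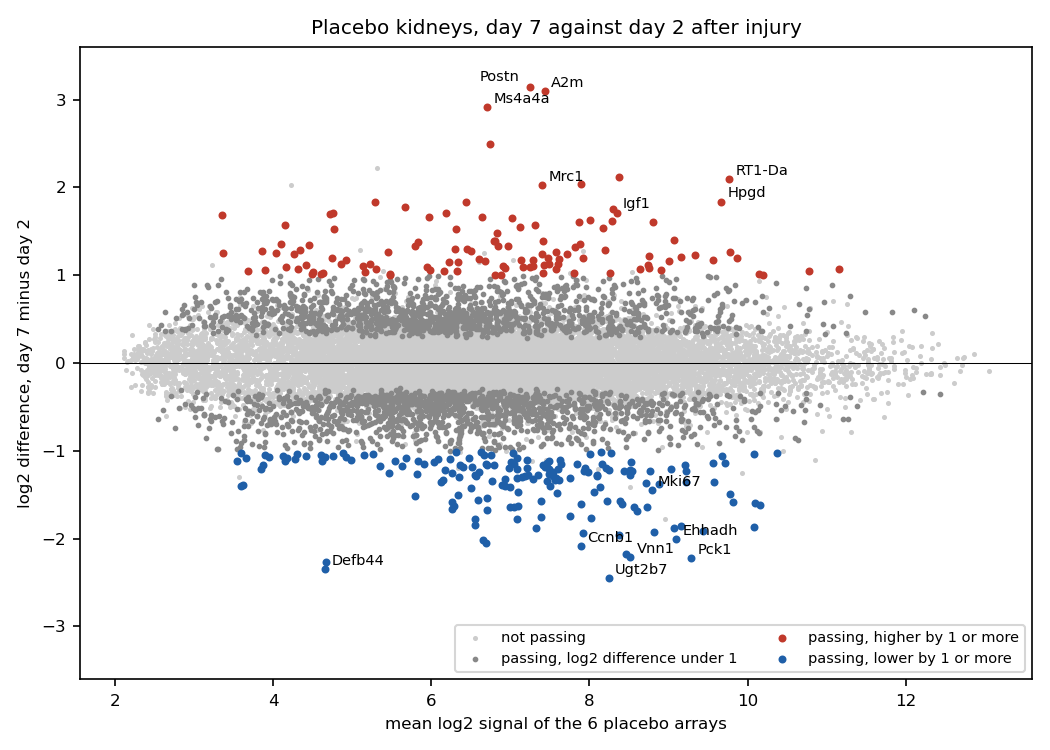
Difference between day 7 and day 2 in placebo kidneys (log2) against the mean log2 signal of the 6 placebo arrays, 1 point per gene. Red and blue points are the 117 genes that rose and the 173 that fell by at least 1. Postn, A2m and Ms4a4a have the largest rises and Ugt2b7 and Defb44 the largest falls, and most points lie near 0.

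Mitotic genes fell nearly throughout. Of the 41 measured members of the mitosis list 38 fell and 0 rose, 28 fell by at least 1, and the median difference was -1.27, against -0.00957 over all genes. Ccnb1, cyclin B1, which drives entry into mitosis with the kinase Cdk1, read 8.91, 8.86 and 9.04 in the 3 animals of day 2 and 6.56, 7.29 and 6.69 in those of day 7. Every day 7 animal lay more than 1 below every day 2 animal, and the difference was -2.09 ± 0.19 (SE, n = 3 per group; adjusted p = 0.000112 in limma), a 4.25-fold fall. Cdk1 itself read 8.97, 8.72 and 8.95 and then 6.499, 7.48 and 6.86, a difference of -1.93 ± 0.25. The proliferation marker Mki67 read 9.52, 9.35 and 9.66 at day 2 and 7.84, 8.498 and 7.84 at day 7, a difference of -1.45 ± 0.20. In all 3 genes replicate 2 was the highest of the day 7 animals and still lay below all day 2 animals. The spindle protein Ckap2 (-1.88), the spindle checkpoint kinase Ttk (-1.76), the kinesin of cytokinesis Kif23 (-1.75) and, outside the list, the centromere protein Cenpi (-2.05) fell likewise. The members that did not pass were Melk, Ube2c and Espl1, with differences of -0.44, -0.41 and -0.23. Melk passed without replicate 1 of day 7 (adjusted p = 0.0394 in limma) or replicate 2 of day 7 (0.0455), and Ube2c without replicate 2 of day 7 (0.0229).

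As these genes fell together, the promoters of the 5 members with the largest falls are shown, as RefSeq gives them for the rat assembly GRCr8, the 250 bases before the transcription start written 5′ to 3′ on the gene's strand. Capitals mark matches on either strand to 3 motifs. TTTGAA is the core of the cell cycle genes homology region (CHR), through which the DREAM and B-MYB complexes are known to act on mitotic genes. CCAAT is the box bound by NF-Y and reads ATTGG on the other strand. TTGGCGC is a form of the E2F site known from genes of DNA synthesis, and its start can belong to an ATTGG match.
Ccnb1, chr2:33655226-33655475, minus strand: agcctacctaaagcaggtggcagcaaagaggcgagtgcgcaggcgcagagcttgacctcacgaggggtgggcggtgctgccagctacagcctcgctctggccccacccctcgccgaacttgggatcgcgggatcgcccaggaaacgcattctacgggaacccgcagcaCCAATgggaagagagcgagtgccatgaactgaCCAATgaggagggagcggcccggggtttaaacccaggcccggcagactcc
Cdk1, chr20:19265043-19265292, plus strand: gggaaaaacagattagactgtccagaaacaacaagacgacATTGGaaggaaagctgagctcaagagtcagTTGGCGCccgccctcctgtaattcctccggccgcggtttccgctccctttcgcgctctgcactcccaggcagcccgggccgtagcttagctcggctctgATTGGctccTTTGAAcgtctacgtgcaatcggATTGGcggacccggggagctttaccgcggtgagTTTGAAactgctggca
Ckap2, chr16:76541864-76542113, plus strand: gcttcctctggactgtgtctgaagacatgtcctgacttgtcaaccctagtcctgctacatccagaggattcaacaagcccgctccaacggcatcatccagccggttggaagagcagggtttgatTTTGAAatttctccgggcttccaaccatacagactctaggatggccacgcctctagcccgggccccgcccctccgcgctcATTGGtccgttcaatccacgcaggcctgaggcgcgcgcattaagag
Ttk, chr8:93634389-93634638, plus strand: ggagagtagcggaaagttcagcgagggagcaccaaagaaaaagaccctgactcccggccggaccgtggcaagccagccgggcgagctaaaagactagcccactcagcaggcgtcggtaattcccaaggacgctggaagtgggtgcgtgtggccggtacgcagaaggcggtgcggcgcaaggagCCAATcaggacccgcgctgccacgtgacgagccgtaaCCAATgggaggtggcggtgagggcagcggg
Kif23, chr8:71320585-71320834, minus strand: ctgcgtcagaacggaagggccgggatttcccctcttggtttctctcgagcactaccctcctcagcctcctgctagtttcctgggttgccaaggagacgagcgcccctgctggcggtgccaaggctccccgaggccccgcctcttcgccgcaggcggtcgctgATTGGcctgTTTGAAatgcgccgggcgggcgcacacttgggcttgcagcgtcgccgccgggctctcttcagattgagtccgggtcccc
Cdk1 holds 2 CHR matches, 3 CCAAT matches and 1 E2F match, Kif23 and Ckap2 1 CHR and 1 CCAAT match each, and Ccnb1 2 CCAAT matches and no CHR match in these letters. The match of Ttk to CHR lies after its start and outside the printed bases, beside 2 CCAAT matches before it.

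Over the window from 250 bases before to 50 after the start, 34 of the 41 mitosis genes had a RefSeq promoter, and 25 of the 34 (73.5%) held CHR, 26 (76.5%) CCAAT and 21 (61.8%) both. Among the 14564 tested genes with a promoter the shares were 15.9%, 37.9% and 6.52%, and over all 27457 promoters of this length 18.1%, 37.7% and 7.25%. The 29 promoters of the DNA replication list held CHR in 2 cases (6.9%), CCAAT in 17 (58.6%), both in 0 and E2F in 10 (34.5%), against E2F in 3 mitosis promoters (8.82%) and in 3.36% of the tested genes. These shares describe letters in a window and are no measure of binding.

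Genes of DNA replication were lower as well. Of 36 members 24 fell and 0 rose, 6 of them by at least 1, and all 36 differences were below 0, with a median of -0.62. Rrm2, the regulated subunit of ribonucleotide reductase, read 10.86, 10.896 and 11.12 at day 2 and 8.92, 10.17 and 8.93 at day 7, a difference of -1.62 ± 0.32 (SE, n = 3 per group; adjusted p = 0.00517 in limma). Replicate 2 of day 7 stood more than 1 above the other two day 7 animals and below all day 2 animals. The helicase subunits Mcm6 (-1.35) and Mcm4 (-1.31), the clamp loader subunit Rfc4 (-1.29) and the helicase cofactor Gins1 (-1.15) fell. Among 16 p53 targets and cyclin-dependent kinase inhibitors 1 rose, Cdkn1b (0.36), and 0 fell, beside 15.9% of all genes passing. The median was -0.000916. The call of Cdkn1b ended without any single placebo array other than replicate 3 of day 7 (adjusted p = 0.0839 to 0.135 in limma). Cdkn1a, which encodes the inhibitor p21, read 6.85, 6.76 and 6.77 and 6.87, 7.04 and 7.04, a difference of 0.18 ± 0.12 that did not pass (adjusted p = 0.301 in limma). The list had 0 calls without replicate 2 or 3 of day 2 or replicate 1 of day 7, and 2 without replicate 2 or 3 of day 7.

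Genes of fatty acid oxidation were lower at day 7, 12 of 27 fell and 0 rose, with a median of -0.38. Ehhadh, the bifunctional enzyme of the peroxisomal pathway, read 10.21, 10.25 and 9.84 at day 2 and 8.57, 7.82 and 7.89 at day 7. The groups were more than 1 apart, and the difference was -2.004 ± 0.22 (SE, n = 3 per group; adjusted p = 0.000232 in limma), a 4.01-fold fall. The mitochondrial thiolase Acaa2 read 10.84, 11.23 and 10.996 at day 2 and 9.205, 9.704 and 8.54 at day 7, a difference of -1.87 ± 0.32. The omega-hydroxylase Cyp4a1 (-1.58) and the enoyl-CoA isomerases Eci1 (-1.15) and Eci2 (-1.14) fell as well. In the respiratory chain 1 of 30 members rose, 1 fell and the median was -0.0587, and 0 members passed without any 1 array of day 2 and 1 without any 1 array of day 7. The direction of these calls depended on the normalization. After centring on the array median 0 rose and 3 fell, with the 6 placebo arrays alone 2 rose and 0 fell, and without further normalization 0 rose and 13 fell. In glycolysis 1 of 13 members rose and 0 fell, and that gene was Ldha, lactate dehydrogenase A, which read 10.53, 10.86 and 10.49 at day 2 and 11.53, 11.86 and 11.69 at day 7 (difference 1.07 ± 0.14, adjusted p = 0.000593 in limma). Without replicate 3 of day 7 a second member passed, making 2. The counts of the respiratory chain and of glycolysis stand beside 15.9% of all genes passing.

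Of 23 genes of proximal tubule metabolism 5 fell and 2 rose, beside 8.1% and 7.81% of all genes, and 19 differences were below 0, with a median of -0.28. Pck1, the rate-setting enzyme of gluconeogenesis, read 11.09, 9.99 and 10.101 at day 2 and 8.22, 7.98 and 8.31 at day 7. Replicate 1 stood highest in day 2, the 3 day 7 animals lay close together, and the difference was -2.22 ± 0.31 (SE, n = 3 per group; adjusted p = 0.000718 in limma), a 4.67-fold fall. Fbp1 of the same pathway (-1.16), Cyp24a1, which inactivates vitamin D (-1.36) and Bhmt, which remethylates homocysteine (-1.19), fell. The brush border peptidases Mme, neprilysin, and Anpep, aminopeptidase N, were the members that rose. Mme read 10.29, 10.57 and 10.07 and then 11.36, 10.86 and 11.26, a difference of 0.85 ± 0.17. Anpep read 10.74, 10.53 and 10.13 and 11.47, 10.73 and 11.07 (0.62 ± 0.19), with replicate 2 of day 7 below replicate 1 of day 2. Its call ended without replicate 2 (adjusted p = 0.0872 in limma) or 3 of day 2 (0.166) or replicate 1 (0.146) or 3 of day 7 (0.0862).

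Of 32 proximal tubule transporters 5 fell and 1 rose, beside 8.1% and 7.81% of all genes, with a median of -0.32. The organic anion transporter Slc22a6 read 10.19, 9.79 and 9.72 at day 2 and 8.59, 8.58 and 8.47 at day 7, a difference of -1.35 ± 0.30 (SE, n = 3 per group; adjusted p = 0.00976 in limma). Slc5a1, the sodium glucose transporter of the late proximal tubule, was the member that rose, from 7.27, 7.56 and 7.12 to 7.97, 7.88 and 8.07 (0.66 ± 0.14). Slc34a1, with the values given above, differed by -0.42 ± 0.21 and did not pass. The number of members passing, 6, depended on single arrays and on the fit: it was 2 without replicate 1 of day 2, 3 without replicate 2 of day 2, 3 without replicate 3 of day 7, and 14 when only the 6 placebo arrays were normalized and fitted, with medians of -0.30 to -0.31 in these fits. With animal number above or below 90 as a covariate 10 passed, with a median of -0.54. Against replicate 1 of day 7 alone the median was -0.39 and Slc22a6 differed by -1.32. The promoters of the transport and metabolism lists held GTTAAT in 4 of 29 (13.8%) and 4 of 19 cases (21.1%), against 6.15% of the tested genes. These 6 letters are only a part of the site of the tubule factor HNF1, and the full site was not searched.

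**Figure D2:**
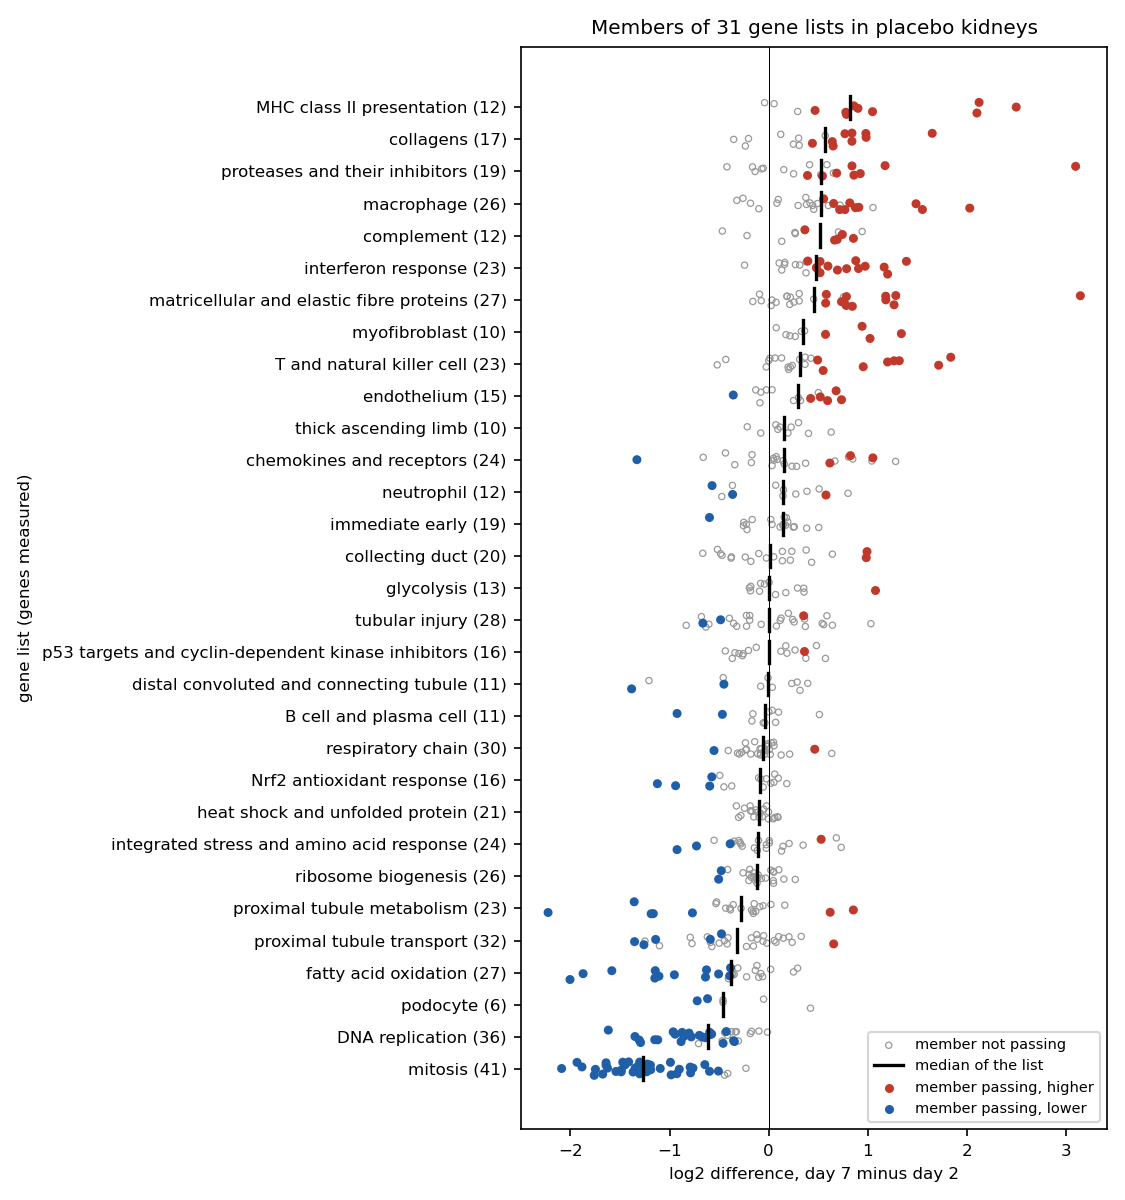
Differences between day 7 and day 2 in placebo kidneys (log2) for the members of 31 gene lists, ordered by the median of the list (black bar). Filled points are members that passed, red higher and blue lower. The mitosis list lies entirely below 0 with a median of -1.27, and MHC class II presentation has the highest median, 0.82.

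Of 28 markers of injured tubules 1 rose and 2 fell, beside 15.9% of all genes passing, with a median of 0.00121. Havcr1, kidney injury molecule 1, read 11.03, 11.38 and 11.58 at day 2 and 9.96, 10.88 and 11.34 at day 7, a difference of -0.60 ± 0.35 that did not pass (adjusted p = 0.252 in limma). The groups overlapped, and replicate 1 of day 7 was the lowest of the 6 animals. Lcn2, a lipocalin released by injured distal tubules, read 10.24, 9.98 and 10.21 and 9.82, 11.37 and 11.16, a difference of 0.64 ± 0.54 (adjusted p = 0.448), with replicate 1 of day 7 below and replicates 2 and 3 above all animals of day 2. The cytokine Il24 read 6.803, 7.27 and 7.64 and 6.94, 8.31 and 9.56, a difference of 1.03 ± 0.49 with overlapping groups (adjusted p = 0.172 in limma, and 0.0151 without replicate 1 of day 7). The number of calls in this list, 3, was 0 without replicate 3 of day 2, 1 without replicate 1 of day 2 or replicate 2 of day 7, and 5 without replicate 1 of day 7.

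In the thick ascending limb 0 of 10 members passed and the median was 0.15. Umod differed by 0.30 ± 0.14 (adjusted p = 0.173 in limma). In the distal convoluted and connecting tubule 2 of 11 fell, beside 8.1% of all genes. Tissue kallikrein, Klk1, had the larger fall and read 10.23, 9.34 and 9.14 and 9.09, 7.51 and 7.97 (-1.38 ± 0.42). In the collecting duct 2 of 20 rose, beside 7.81% of all genes, the water channel Aqp4 (0.99) and the urea transporter Slc14a2 (0.98). The direction of the collecting duct calls depended on the normalization. After centring on the array median 1 member rose and 4 fell, and with the 6 placebo arrays alone 0 rose and 3 fell. In limma Klk1 lost its call without any 1 placebo array other than replicate 1 of day 7 (adjusted p = 0.0534 to 0.152), with differences of -1.595 to -1.05 in these fits. Without any 1 other than replicate 3 of day 7, Aqp4 lost its call (adjusted p = 0.0536 to 0.175, differences of 0.67 to 1.19), and so did Slc14a2 (0.0856 to 0.159, differences of 0.69 to 1.05). Slc14a2 read 7.33, 7.18 and 5.69 at day 7, with replicate 3 at the level of day 2. Over leave-one-out fits the calls ran from 0 to 1 in the thick ascending limb (1 without replicate 3 of day 7), from 0 to 3 in the distal convoluted and connecting tubule (0 without any 1 array of day 2 or replicate 2 of day 7, 1 without replicate 1 of day 7, and 3 without replicate 3 of day 7, of which 1 rose) and from 0 to 4 in the collecting duct (0 without any 1 array of day 2 or replicate 2 of day 7, 1 without replicate 1 of day 7, which fell, and 4 without replicate 3 of day 7, of which 1 fell). Podocyte markers had a median of -0.46 over 6 members, of which 2 fell, beside 8.1% of all genes. Nphs1, nephrin of the filtration slit, read 6.89, 7.06 and 6.96 at day 2 and 6.42, 6.36 and 6.29 at day 7 (-0.62 ± 0.14, adjusted p = 0.00938 in limma). Without replicate 1 or 3 of day 2 or replicate 2 or 3 of day 7 the podocyte list had 1 call.

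Matrix genes were higher at day 7. Postn, periostin, a matricellular protein of fibroblasts, had the largest rise of all genes named by symbol: it read 5.15, 5.76 and 6.11 at day 2 and 7.12, 10.47 and 8.86 at day 7. Every day 7 animal lay above every day 2 animal, but the day 7 animals spanned more than 3 log2 units, and the difference was 3.14 ± 0.56 (SE, n = 3 per group; adjusted p = 0.0028 in limma), an 8.84-fold rise. A2m, alpha-2-macroglobulin, an inhibitor of many proteases, read 5.68, 5.84 and 6.14 and then 8.98, 9.65 and 8.31, a difference of 3.095 ± 0.27 (adjusted p = 8.97e-05), or 8.55-fold. The groups of A2m were more than 2 apart.

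Of 27 matricellular and elastic fibre proteins 12 rose and 0 fell (median 0.45), of 17 collagens 9 and 0 (median 0.57), of 19 proteases and protease inhibitors 8 and 0 (median 0.52), and of 10 myofibroblast genes 4 and 0 (median 0.35). Fibrillin 1, Fbn1, the backbone of microfibrils, read 7.52, 7.44 and 7.72 and 8.92, 8.99 and 8.62 (1.28 ± 0.18). Fibronectin, Fn1 (1.26), the proteoglycan versican, Vcan (1.18), and the crosslinking enzyme lysyl oxidase, Lox (1.18), rose too. Among collagens Col14a1 read 6.08, 6.096 and 6.399 and 7.204, 8.86 and 7.46 (1.65 ± 0.31), with replicate 2 of day 7 more than 1 above the others, and Col6a2 (0.98), Col12a1 (0.98), Col3a1 (0.84) and Col6a3 (0.84) rose by less. Col1a1, the main chain of fibrillar collagen I, read 6.92, 6.78 and 6.74 and 7.295, 7.89 and 7.19, a difference of 0.65 ± 0.17 (adjusted p = 0.0219 in limma). That call ended without replicate 2 of day 2 (adjusted p = 0.0698), replicate 3 of day 2 (0.0764) or replicate 2 of day 7 (0.067). The gelatinase Mmp2 (1.17), the aggrecanase Adamts5 (0.92) and the collagenase Mmp13 (0.84) rose, and so did the fibroblast genes Cthrc1 (1.34), Tpm1 (1.02) and Thy1 (0.94). Without replicate 2 of day 2 5 members of the protease list passed.

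Of 15 endothelial genes 5 rose, beside 7.81% of all genes, and 1 fell, with a median of 0.30. The gene that fell was the transcription factor Sox17 (-0.36), and its call ended without each placebo array in turn (adjusted p = 0.0551 to 0.142 in limma). Tie1, a receptor kinase of vessels, read 5.76, 5.73 and 5.57 at day 2 and 6.46, 6.36 and 6.44 at day 7 (0.73 ± 0.13, adjusted p = 0.00286 in limma) and kept its call without each placebo array in turn. The number of endothelial members passing fell to 1 without replicate 2 of day 2, 1 without replicate 3 of day 2, 1 without replicate 1 of day 7 and 3 without replicate 3 of day 7.

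**Figure D3:**
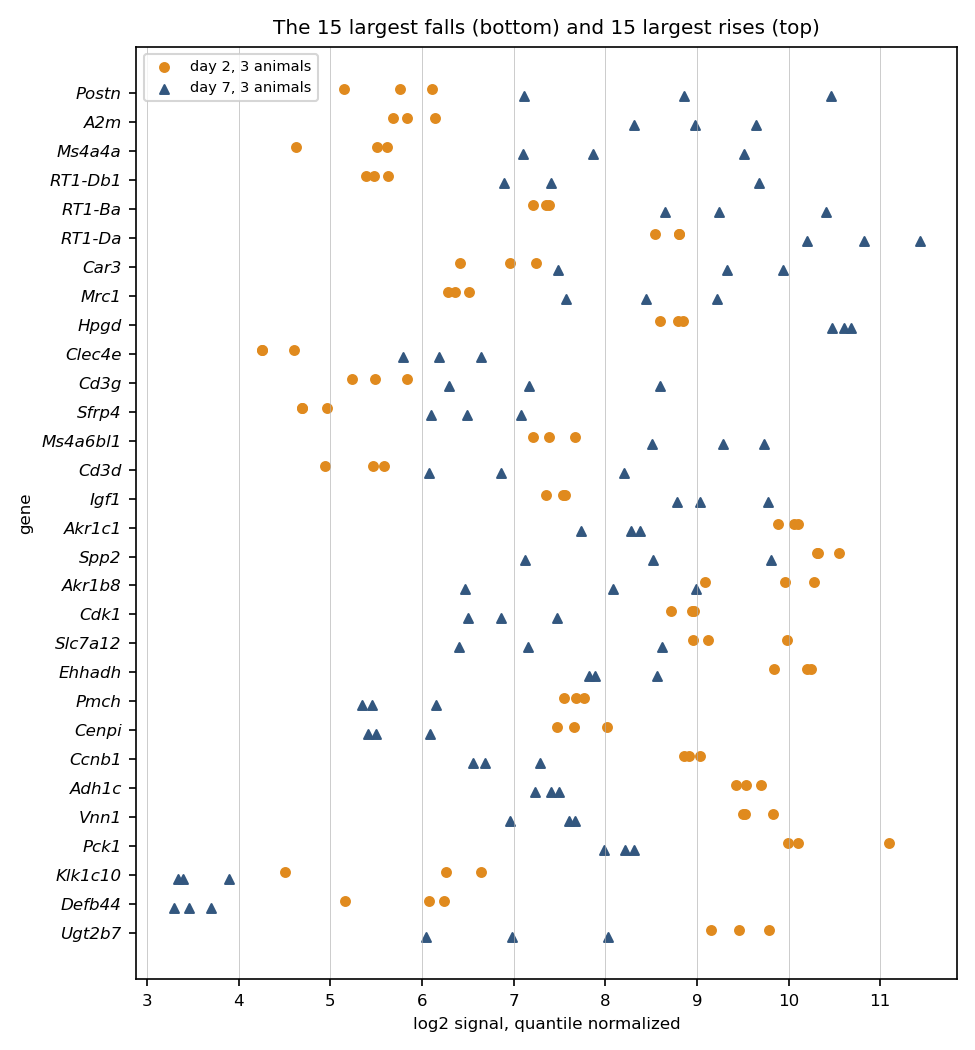
Log2 signal of each placebo animal for the 15 genes with the largest rises and the 15 with the largest falls that passed, day 2 as circles and day 7 as triangles. The days do not overlap in any of the 30 genes, beside 39.5% of all genes without overlap. The 30 were chosen by their differences on these same arrays, so their separation is no further evidence. The day 7 animals of Postn, RT1-Db1, Ms4a4a and Spp2 are spread more widely than those of Hpgd or Adh1c.

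Genes of antigen presentation on MHC class II had the highest median of the 31 lists of kidney and immune genes. Of 12 members 9 rose and 0 fell, with a median of 0.82. RT1-Da, a class II alpha chain of the rat, read 8.805, 8.803 and 8.55 at day 2 and 10.203, 11.43 and 10.82 at day 7, a difference of 2.100 ± 0.27 (SE, n = 3 per group; adjusted p = 0.000422 in limma), or 4.29-fold. RT1-Db1 read 5.63, 5.48 and 5.38 and 6.89, 9.68 and 7.41, a difference of 2.496 ± 0.52, and RT1-Ba differed by 2.12 ± 0.38. In all 3 genes the day 7 animals stood in the same order, replicate 2 highest and replicate 1 lowest, and all lay above day 2. The invariant chain Cd74 (1.05) and RT1-Bb (0.90) rose. These genes are close relatives, and whether their rows share probes was not tested.

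Of 26 macrophage genes 10 rose and 0 fell, beside 7.81% and 8.1% of all genes, with a median of 0.52. The mannose receptor Mrc1 read 6.29, 6.36 and 6.52 at day 2 and 7.57, 9.22 and 8.45 at day 7, a difference of 2.03 ± 0.29 (SE, n = 3 per group; adjusted p = 0.000739 in limma), or 4.08-fold. Adgre1, a surface receptor of macrophages, read 6.13, 6.52 and 6.39 and 7.56, 8.44 and 7.695 (1.55 ± 0.21). Ms4a7 (1.49), the Fc receptor chain Fcer1g (0.91) and the complement component C1qc (0.87) rose. Cd68, a lysosomal glycoprotein of phagocytes, read 7.36, 7.22 and 7.204 and 7.24, 8.79 and 7.56, a difference of 0.60 ± 0.30 that did not pass (adjusted p = 0.193 in limma), and only replicate 2 of day 7 lay clearly above day 2. The macrophage count changed when 1 animal was left out: 16 members passed without replicate 1 of day 7, and 6 without replicate 2 of day 7, 6 without replicate 2 of day 2 and 6 without replicate 3 of day 2. The median was 0.29 without replicate 2 of day 7 and 0.75 without replicate 1.

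Of 23 T and natural killer cell genes 8 rose, beside 7.81% of all genes, 0 fell and 15 did not pass, with a median of 0.31. Cd3g, a chain of the receptor complex, read 5.83, 5.48 and 5.24 at day 2 and 6.298, 8.598 and 7.17 at day 7, a difference of 1.84 ± 0.41 (SE, n = 3 per group; adjusted p = 0.0103 in limma). Cd3d (1.71), Cd4, the coreceptor for class II that rat macrophages can also carry (1.32), Cd2 (1.26) and Trat1 (1.199) rose, and the cytotoxic granule gene Gzma read 5.01, 4.996 and 4.404 and 4.52, 4.14 and 4.45 (-0.43 ± 0.23) and did not pass. Among 11 B cell and plasma cell genes 0 rose and 2 fell, beside 7.81% and 8.1% of all genes, with a median of -0.0391. Cr2, the complement receptor of B cells, read 4.82, 4.74 and 4.998 at day 2 and 4.02, 3.76 and 4.01 at day 7 (-0.92 ± 0.11, adjusted p = 0.000283 in limma). In the neutrophil list 1 of 12 rose and 2 fell, beside 7.81% and 8.1% of all genes, with a median of 0.15. Without replicate 3 of day 2 each of these lists had 1 call, and the B cell list also without replicate 1 of day 2 or replicate 2 of day 7.

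Among 24 chemokines and their receptors 3 rose and 1 fell, beside 15.9% of all genes passing, so the count was near that share. The median was 0.15. The ligand Cxcl11 fell, from 8.23, 8.13 and 8.32 to 7.07, 7.18 and 6.45 (-1.33 ± 0.17, adjusted p = 0.000455 in limma). The receptors Cxcr6, found on T cells (1.05), and Cxcr4 (0.82) rose. The monocyte attractant Ccl2 read 9.95, 9.71 and 10.32 at day 2 and 9.49, 10.603 and 10.03 at day 7, a difference of 0.0487 ± 0.25 with overlapping groups (adjusted p = 0.915 in limma). Without replicate 1 of day 7 7 members of this list passed.

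Interferon response genes rose in 13 of 23 cases and fell in 0, with a median of 0.48. Usp18, which removes the modifier ISG15 from proteins, read 5.996, 6.23 and 6.103 at day 2 and 7.67, 7.86 and 6.97 at day 7, a difference of 1.39 ± 0.28 (SE, n = 3 per group; adjusted p = 0.00607 in limma). Isg15 itself (1.16), Ifi27 (1.200) and the antiviral GTPase Mx2 (0.97) rose. The mean of the list stood 0.64, 0.63 and 0.37 above its day 2 placebo mean in replicates 1, 2 and 3 of day 7, so replicate 3 was the lowest here. Without replicate 3 of day 2 8 members passed. Of 12 complement genes 5 rose and 0 fell (median 0.51). They include the C1 inhibitor Serping1, which read 8.74, 8.46 and 8.72 and 9.42, 9.53 and 9.54 (0.85 ± 0.13), and the protease C1s (0.74), and 3 passed without replicate 1 of day 2.

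Lists of stress programmes differed in their calls, beside 15.9% of all genes passing. Of 21 heat shock and unfolded protein genes 0 passed (median -0.10), of 26 ribosome biogenesis genes 2 fell and 0 rose (median -0.12), and of 19 immediate early genes 1 fell and 0 rose (median 0.14), namely Fosl1 (-0.60). Ribosome biogenesis had 1 call without replicate 1 of day 2 or of day 7 and 0 without replicate 3 of day 2, and the immediate early list 2 without replicate 1 of day 7. Of 24 genes of the integrated stress and amino acid response 1 rose, Pycr1 (0.53), and 3 fell (median -0.11), and 8 passed without replicate 2 of day 7 and 2 without any other 1 placebo array. In the antioxidant response driven by Nrf2 4 of 16 fell and 0 rose (median -0.0909), with 2 passing without any 1 day 2 array or without replicate 3 of day 7. The detoxifying transferase Gstp1 read 8.88, 9.404 and 8.97 and 7.89, 8.06 and 7.93 (-1.12 ± 0.19), and thioredoxin reductase, Txnrd1, read 9.698, 9.49 and 9.57 and 8.72, 8.61 and 8.61 (-0.94 ± 0.12, adjusted p = 0.000329 in limma).

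Several of the largest changes lay outside these lists. Hpgd, which inactivates prostaglandins, read 8.85, 8.797 and 8.59 at day 2 and 10.68, 10.47 and 10.61 at day 7, a difference of 1.84 ± 0.21 (SE, n = 3 per group; adjusted p = 0.000242 in limma), with both days tightly grouped. Igf1, the growth factor, read 7.36, 7.54 and 7.56 and 9.03, 9.78 and 8.79 (1.71 ± 0.23). The membrane proteins Ms4a4a (2.91) and Ms4a6bl1 (1.75), the lectin receptor Clec4e (1.84), the secreted Wnt-binding protein Sfrp4 (1.77) and the carbonic anhydrase Car3 (2.04) rose. Car3 read 7.48, 9.33 and 9.94 at day 7, where replicate 1 stood only just above day 2.

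Among the falls were enzymes of drug, steroid and alcohol metabolism. Ugt2b7, a glucuronosyltransferase, read 9.16, 9.78 and 9.46 at day 2 and 6.98, 8.03 and 6.05 at day 7, a difference of -2.45 ± 0.52 (SE, n = 3 per group; adjusted p = 0.00783 in limma), or 5.46-fold. Vnn1, a pantetheinase of the proximal tubule, read 9.53, 9.83 and 9.51 and 6.96, 7.67 and 7.600 (-2.21 ± 0.27), the alcohol dehydrogenase Adh1c differed by -2.18 ± 0.39, and the aldo-keto reductase Akr1c1 by -1.88 ± 0.38. Klk1c10, of the kallikrein family, read 6.64, 6.26 and 4.502 and 3.34, 3.39 and 3.89 (-2.26 ± 0.39), with replicate 3 of day 2 well below the other day 2 animals. Defb44, a beta-defensin (-2.35), and Pmch, the precursor of melanin-concentrating hormone (-2.02), fell as well. The remaining members of the 15 largest falls lost their calls without single arrays, with adjusted p from limma in parentheses. Akr1b8 (-1.93) did so without replicate 2 (0.128) or 3 of day 2 (0.107) or replicate 1 (0.061) or 3 of day 7 (0.139), Spp2 (-1.91) without any 1 array other than replicate 2 of day 7 (0.0806 to 0.121), and Slc7a12 (-1.96) without replicate 2 of day 2 (0.0657) or of day 7 (0.0512). Several of these genes belong to families of close copies, and cross-hybridisation among them was not tested.

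The day 7 animals differed more among themselves than the day 2 animals. The median SD of a gene was 0.107 at day 2 and 0.144 at day 7, and the median range 0.205 and 0.274. Replicate 2 of day 7 stood at least 2 above both other animals of its group in 11 genes, replicate 1 in 2 and replicate 3 in 1, and at day 2 no animal did so in any gene. Retnlg, a resistin-like secreted protein, read 3.16, 2.96 and 3.501 at day 2 and 3.25, 9.099 and 3.37 at day 7, Clca1 read 5.18, 9.48 and 4.596 at day 7, and the eosinophil attractants Ccl11 and Ccl24 read 4.35, 8.25 and 4.63 and 6.13, 9.15 and 6.26. In all 4 genes replicate 2 of day 7 alone was high, and 0 of the 4 passed. Clca1 passed without replicate 2 of day 7 (a difference of 0.69, adjusted p = 0.0209 in limma) or replicate 3 of day 7 (3.14, adjusted p = 0.027). At day 2 the widest ranges were in Cxcl13, Mmp20 and Klk1c10, and Mmp20 read 7.73, 7.86 and 5.61.

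The order of the day 7 animals also held for whole lists. Relative to the day 2 placebo mean the mean signal of the macrophage list was 0.18, 1.05 and 0.49 in replicates 1, 2 and 3 of day 7, that of MHC class II presentation 0.59, 1.51 and 0.86, and that of the T and natural killer cell list 0.19, 0.81 and 0.42. Replicate 2 was highest in each. The mitosis list stood at -1.38, -0.90 and -1.38 and DNA replication at -0.82, -0.48 and -0.70, so replicate 2 also had the smallest fall of both. Proximal tubule transport stood at -0.35, -0.36 and -0.36, the same in all 3 animals to within the spread of day 2, while the thick ascending limb stood at 0.59, -0.0266 and -0.0471, with replicate 1 alone above day 2. By the numbers in the sample titles replicate 1 of day 7 and all day 2 animals are numbered above 90 and replicates 2 and 3 of day 7 below 90. Against replicate 1 alone, which is then assumed to vary like the other groups, 843 genes passed, and the medians were -1.58 for mitosis, -0.27 for fatty acid oxidation, 0.56 for MHC class II, 0.49 for collagens and 0.17 for macrophages. With the number as a covariate 1662 genes passed, among them 4 class II, 3 macrophage, 2 T cell and 5 collagen genes.

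**Figure D4:**
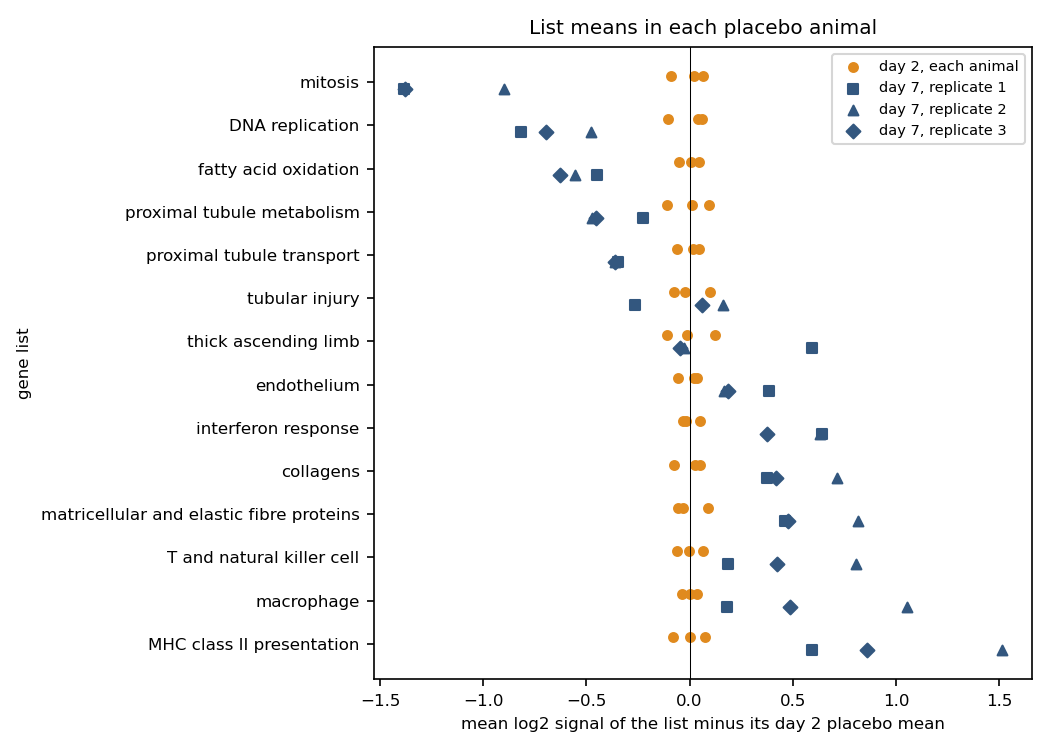
Mean log2 signal of 14 gene lists in each placebo animal, minus the mean of the 3 day 2 placebo animals for the list. Circles are day 2 and the other symbols the 3 animals of day 7. In MHC class II presentation replicates 1, 2 and 3 of day 7 stand at 0.59, 1.51 and 0.86, and replicate 2 is also the highest animal in the macrophage, T cell and matrix lists.

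Markers of tissue beside the kidney were examined in the same way, and their counts stand beside 15.9% of all genes passing. Red blood cell genes (3 measured) had list means of 5.898, 5.43 and 5.48 at day 2 and 5.47, 5.32 and 6.31 at day 7, and 1 rose. Perirenal fat genes (8) had means of 6.37, 6.31 and 6.18 and 6.72, 6.49 and 6.400, with 1 that rose, Fabp4 (1.21), which endothelium and macrophages also express; its call ended without replicate 3 of day 2 (adjusted p = 0.0556 in limma) or replicate 1 of day 7 (0.0531). Urothelial genes (9) had means of 5.84, 5.77 and 5.99 and 6.44, 6.38 and 5.797, and 3 rose and 1 fell. Smooth muscle (5 genes) had no calls, adrenal cortex (7) 1 in each direction, and of 6 mast cell genes 2 rose, led by the protease Cpa3, which read 3.78, 3.67 and 3.62 at day 2 and 4.34, 5.696 and 4.901 at day 7 (1.29 ± 0.25, adjusted p = 0.0044 in limma). Urothelium had 2 calls without replicate 1 or 3 of day 2 and 1 without replicate 2 of day 7, adrenal cortex 1 without any 1 placebo array, and the mast cell list 1 without replicate 2 or 3 of day 2 or replicate 3 of day 7. The part of these markers in the changes of other genes was not tested.

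The same days were compared in kidneys given anti-miR-182, whose day means share no array with those of placebo. Both comparisons come from 1 fit in which all 12 arrays share 1 estimate of each gene's spread. Their calls are therefore not independent. Of the 18166 genes 2676 passed (14.7%), 1261 higher (6.94%) and 1415 lower (7.79%). In 1586 genes both comparisons passed in the same direction, which is 54.9% of the placebo calls and 59.3% of the anti-miR-182 calls, and in 1 gene they passed in opposite directions. Of the 2890 placebo calls 2849 (98.6%) had the same sign under anti-miR-182. The share of equal signs over all genes was not computed. Any difference in how the arrays of each day were run or normalized is common to both courses, and its part in these shares was not tested. Ccnb1 differed by -2.02 ± 0.19 under anti-miR-182 (SE, n = 3 per group), Pck1 by -1.76 ± 0.31, A2m by 2.42 ± 0.27, Postn by 1.82 ± 0.56 and RT1-Da by 1.42 ± 0.27, beside -2.09, -2.22, 3.095, 3.14 and 2.100 in placebo. List medians under anti-miR-182 were -1.196 for mitosis, -0.52 for DNA replication, -0.30 for fatty acid oxidation, 0.68 for MHC class II, 0.37 for macrophages, 0.17 for collagens and 0.28 for the interferon response. Of the 17 collagens 3 rose and 1 fell. The median of the collagens was 0.57 in placebo. Medians of some other lists differed between the courses too. Complement had 0.0859 under anti-miR-182, beside 0.51 in placebo, and the collecting duct -0.36, beside 0.014. Of 32 proximal tubule transporters 2 rose and 0 fell, with a median of -0.0754 beside -0.32 in placebo. Of 28 injury markers 7 rose and 2 fell, with a median of 0.29 beside 0.00121. Of 15 endothelial genes 0 rose and 0 fell, with a median of 0.0674 beside 0.30. These counts stand beside 6.94% of all genes higher and 7.79% lower under anti-miR-182, and the rises among transporters were near that share.

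Whether the courses differ was tested by the interaction, the placebo difference minus the anti-miR-182 difference. In limma 0 of 18166 genes passed (0%), 665 had an unadjusted p under 0.05 (3.66%), and the smallest adjusted p was 0.283. Without replicate 3 of day 7 in placebo 1 gene passed, the basal keratin Krt15 (1.93 ± 0.17, SE, adjusted p = 0.000974 in limma), which read 7.15, 7.02 and 5.37 in the 3 placebo animals of day 7. With all arrays no gene can be called particular to the placebo course. The 5 genes with the smallest p included the sodium proton exchanger Slc9a4, with an interaction of 1.02 ± 0.16, and the fibrinogen chain Fga, with -1.59 ± 0.31 (adjusted p = 0.283 and 0.999 in limma). Fga read 9.52, 9.56 and 9.54 at day 2 and 8.69, 9.796 and 9.55 at day 7 in placebo, a difference of -0.19 ± 0.22, against 1.402 ± 0.22 under anti-miR-182. The courses of Lcn2 were 0.64 ± 0.54 and 2.26 ± 0.54, with an interaction of -1.61 ± 0.76 (adjusted p = 0.999 in limma), and those of Col1a1 0.65 ± 0.17 and -0.0231 ± 0.17 (interaction 0.67 ± 0.24, adjusted p = 0.999). These differences were not past the threshold, which does not show that the courses are alike.

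**Figure D5:**
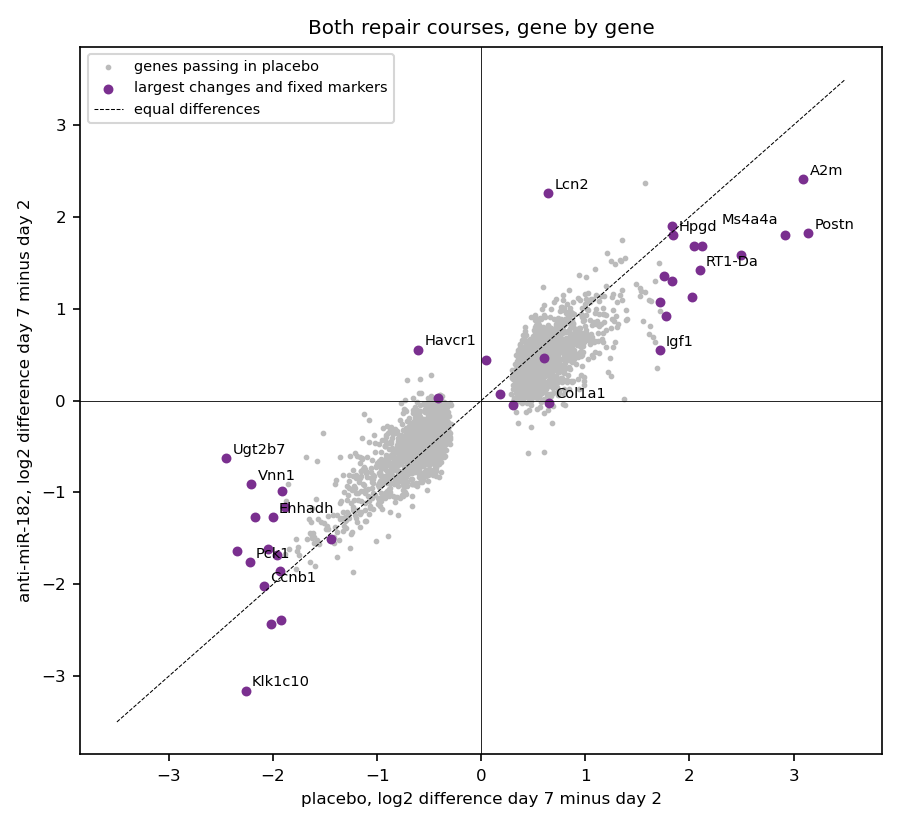
Log2 difference between day 7 and day 2 under anti-miR-182 (vertical) against that in placebo (horizontal). Grey points are the 2890 genes that passed in placebo, purple points the largest changes and the fixed markers, and the dashed line marks equal differences. Of the grey points 98.6% have the same sign in both courses, and Lcn2 and Havcr1 are higher under anti-miR-182 than on the line. The share of equal signs over all genes was not computed. Any difference in how the arrays of each day were run is common to both courses.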

How the data were processed

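RNA of 12 rat kidneys was measured on whole-transcript arrays. Per the labels, 200 ng of total RNA entered amplification and biotin labelling. The deposited values are log2 signals made by RMA, which corrects background, normalizes arrays and summarises probes, per the submitters' processing notes; the sources used here do not give its version or whether the days were normalized apart. The table holds 36685 rows, of which 36495 had values on all arrays. The annotation gave 18511 rows 1 symbol and 575 several, and 17599 rows were not listed. The row with the highest mean stood for the 291 genes with several rows.

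Arrays were quantile normalized together over the complete rows. The 4 group means were fitted with limma 3.58.1 (R 4.3.3), and eBayes moderated the spread. Each animal gave 1 array, and p-values set a difference against the spread between animals, pooled over the 4 groups. The SE rests on the same pooled spread and not on that of the placebo animals alone. The comparison, the 37 gene lists (668 of 744 entries measured) and the rule for named genes were chosen with earlier results of these data known. Named genes were the 15 largest rises and falls among genes passing, the 5 largest differences of each list's members passing and up to 2 not passing, fixed markers, the 5 widest ranges per placebo group and the 5 smallest interaction p; the text gives a choice of them. Members named to complete a count of 5 or fewer (Anpep, Espl1, Sox17) were chosen after their values were seen. Uncharacterised loci, microRNA and olfactory receptor genes were left out. On simulated data with 200 changed genes among 18166, the placebo comparison recovered 31.4% of log2 differences of 0.5 and 85.8% of 1, with 6.15% false calls. The simulated noise was independent between genes and had the same spread in all groups. Changed genes were also fewer than the 2890 that passed, so these rates need not hold for the data. Alternatives were other normalizations, filters on dim genes, eBayes options, array weights, mean rows, animal number as covariate, a minimum difference (treat), each placebo array left out, and, added after seeing the data, every complete row. Arrays give no counting depth, and their number limits the precision.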

Additional observations from a re-analysis of the deposited data

How the results depend on the processing

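Against the 2890 genes passing between placebo day 7 and day 2, 3228 passed after centring on the array median, 2914 after quantile normalization of the tested genes, 3203 with the 6 placebo arrays alone and 3346 of 36495 rows when every complete row was tested, an alternative added after seeing the data. The count was 5080 without further normalization (766 higher, 4314 lower), 1292 without the dimmest 50% of genes, 1662 with animal number as covariate, 843 without the 2 day 7 animals numbered below 90, 81 with treat against a log2 difference of 0.5, and 1524 to 2206 with 1 placebo array left out. Against the 290 genes that passed with a difference of at least 1, 191 passed without the dimmest 50% of genes, 79 with treat, 385 without further normalization (17.7% higher, against 40.3%) and 266 to 334 with 1 array left out. Under anti-miR-182 the 2676 calls became 5002 without further normalization, 1713 and 1075 without the dimmest 25% and 50%, 1381 with the covariate, 46 with treat and 2207 to 2738 with 1 placebo array left out. The interaction had 0 to 1 calls with 1 array left out and 0 under the other alternatives run. The filters on dim genes test fewer genes by construction, and for the other settings the cause was not tested. Of the named genes that passed, 88 kept the call without each placebo array in turn and 13 lost it at least once, and none changed sign under any alternative run; 63 kept it against replicate 1 of day 7 alone and 24 under treat. Sign changes were limited to named genes that did not pass: Ccl2 read -0.12 after centring, -0.27 without further normalization, -0.17 with the covariate, -0.50 without the 2 animals below 90, -0.23 to 0.32 with 1 array left out, below 0 without replicate 2 of day 2 or of day 7. Without the 2 animals below 90 Ccl11 read -0.10, Cd68 -0.018, Il24 -0.30 and Lcn2 -0.32, and Fga ran from -0.42 to 0.13 with 1 array left out, above 0 without replicate 1 of day 7. No paired analysis was possible because the titles give every array an animal of its own, and replicate numbers follow accession order only. With 3 arrays a group, a missing call does not show that a gene kept its level.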
